A study of Mus musculus with 24 samples.

Results

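The replication-dependent histone genes of the mouse lie in clusters, and the 100 kb bins that hold most of them were followed here through chromatin immunoprecipitation for phosphorylated H2AX (gH2AX), total H2AX and input. Of the 27268 bins of the table, 8 were taken by position on mm10, with earlier results of these data already known. They form 3 stretches. Stretch A is chr13:21700001-22100000 (bins A1 to A4), stretch B is chr13:23500001-23800000 (B1 to B3) and stretch C is the single bin chr3:96200001-96300000 (C1). The 10 nearest bins on each side of every stretch, 54 different bins in all, served as local background.

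Replication-dependent histone genes encode the core histones and most linker histones made in S phase. They are short, mostly lack introns, and give mRNAs that end in a stem-loop in place of a poly(A) tail; NPAT and other factors gather on them in a nuclear body, the histone locus body. H2AX is an H2A variant encoded by a gene of its own outside the clusters, and its phosphorylated form, gH2AX, marks the chromatin around DNA breaks. SIRT7 is a deacetylase of the sirtuin family with roles in chromatin and DNA repair.

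The cells were primary mouse embryonic fibroblasts (MEF) of strain C57BL6, either SIRT7-KO or WT, male or female. Every culture, WT included, had received 5 Gy of X-rays and 30 min of recovery, so no unirradiated state is compared. Each of the 12 groups (gH2AX, H2AX or input, in male KO, male WT, female KO and female WT cells) had 2 libraries. Whether the 2 libraries of any group are of separate cultures is not stated, so the p-values measure the spread between these samples, which may be technical, and genotype and culture or animal cannot be told apart. Reads per library (M, 1e6 reads) ran from 83.2 to 209 M for gH2AX, 65.8 to 250 M for H2AX and 91.0 to 269 M for input. A single cluster bin held 2897 to 9734 gH2AX reads, 1920 to 9150 H2AX reads and 3021 to 10067 input reads. The bin of Sirt7 itself (chr11:120600001-120700000) is too wide to show the loss of an exon: its input was 37.8 and 34.8 CPM in male KO cells, against 36.6 and 35.6 CPM in male WT cells, and 35.0 and 34.6 CPM in female KO cells, against 34.5 and 35.0 CPM in female WT cells (CPM, counts per 1e6 autosomal reads), with overlap in both sexes. DNA counts do not allow a check of fibroblast markers.

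The annotation (RefSeq, GRCm38.p6) placed 62 protein-coding histone genes in the 8 bins, of which 6 encode H1, 16 H2A, 16 H2B, 12 H3 and 12 H4. Stretch A held 23, stretch B 29 and stretch C 10. A1 held 12 (H1f5, H3c10, H3c11, H4c11, H4c12 and genes of H2A and H2B) beside the olfactory receptor gene Olfr1359. A2 held 6, all of H2A, H2B or H4, and A4 held 5 (H4c9 and genes of H2A and H2B) beside the serine protease gene Prss16 and the vomeronasal receptor gene Vmn1r188. A3 held no histone gene: it lies between histone bins and holds Zfp184, a zinc finger gene, Pom121l2 and 19 tRNA genes. B1 was the densest, with 14 histone genes, the linker histone gene H1f3 among them. B2 held 6 (H1f4, H1f6, H2ac6, H4c3 and genes of H2B), and B3 held 9 (H1f1, H1f2, H2ac4, H2bc3 and genes of H3 and H4) beside Hfe, the hemochromatosis gene, and Trim38. C1 held 10 beside the Fc receptor gene Fcgr1. The flanking bins held 2 further genes, H2bc1 and H2ac1. tRNA genes share these stretches: 47 of the 430 annotated ones (10.9%) lay in A1 (2), A2 (6), A3 (19), A4 (7) and B1 (13), and B2, B3 and C1 had 0. A bin value covers all of its genes and the DNA between them, and is not the value of a histone gene.

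Most of the genes are small, core histone genes of a class are often near-identical, and many genes start back to back. Among the 57 histone genes with a promoter on file, 9 H2A genes had an H2B gene starting in the opposite direction 164 to 268 bp away (median 180 bp). Pairs with a gene outside these 57 were not counted. Upstream sequences are shown to make visible what these bins hold, since the 100 kb counts cannot resolve it. The 130 bases before the start of 6 genes follow, from RefSeq GRCm38.p6, 5′ to 3′ toward the gene. Capitals mark TATAAA (the TATA box core), CCAAT (the CCAAT box) and ATTTGCAT (the octamer, bound by OCT1) on either strand, so ATTGG and ATGCAAAT are matches on the other strand. H2ac8 (chr13:23571221-23571350, minus strand) and H2bc8 (chr13:23571270-23571399, plus strand) are such a pair in B1, and their windows overlap, so that 1 octamer stands in both.
H2ac8: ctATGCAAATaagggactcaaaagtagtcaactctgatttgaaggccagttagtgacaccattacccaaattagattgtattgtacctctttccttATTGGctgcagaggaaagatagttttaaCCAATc
H2bc8: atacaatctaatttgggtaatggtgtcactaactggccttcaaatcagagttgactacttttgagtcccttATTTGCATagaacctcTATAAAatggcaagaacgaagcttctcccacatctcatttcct

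H1f5 (chr13:21780626-21780755, minus strand), H3c10 (chr13:21717498-21717627, plus strand) and H4c12 (chr13:21750554-21750683, minus strand) are the other classes, from A1. H2bc18 (chr3:96269570-96269699, plus strand) is an H2B gene of C1 with an octamer.
H1f5: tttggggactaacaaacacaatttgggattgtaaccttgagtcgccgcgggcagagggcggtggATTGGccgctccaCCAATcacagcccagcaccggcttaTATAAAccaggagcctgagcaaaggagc
H3c10: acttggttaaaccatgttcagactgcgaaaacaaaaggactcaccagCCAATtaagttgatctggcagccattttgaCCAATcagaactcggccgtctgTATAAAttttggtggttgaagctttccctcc
H4c12: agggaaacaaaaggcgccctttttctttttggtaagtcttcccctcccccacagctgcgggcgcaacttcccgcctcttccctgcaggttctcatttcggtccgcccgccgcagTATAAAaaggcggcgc
H2bc18: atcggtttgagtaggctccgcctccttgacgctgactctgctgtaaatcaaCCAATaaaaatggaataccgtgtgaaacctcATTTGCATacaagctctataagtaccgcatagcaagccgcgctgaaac

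Promoters were on file for 57 of the histone genes, with 58 start sites, and the 250 bases before each were searched on both strands. TATAAA stood in 26 of 58 windows (44.8%), against 12.4% of the 32851 promoters of all genes searched the same way. CCAAT stood in 48 of 58 (82.8%), against 33.8%: in all 16 H2A, all 15 H2B and all 6 H1 windows, in 8 of 10 H3 windows and in 3 of 11 H4 windows. ATTTGCAT stood in 11 of 58, against 1.6% of all: in 6 of 15 H2B windows and 5 of 16 H2A windows, and in none of the H1, H3 or H4 windows. A match describes the letters in the window and is not a measured binding site.

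The ratio of gH2AX to total H2AX sets the gH2AX signal of a bin against its H2AX signal, averaged over the 4 sex and genotype groups. Each library is scaled to its own autosomal reads, with a TMM factor taken over all 24 libraries, so the ratio ranks bins against each other. It is not the share of H2AX that is phosphorylated. Every cluster bin had more gH2AX relative to H2AX than the typical bin. The median log2 ratio of the 8 bins was 0.27, against 0.0040 over all bins and -0.03 over the flanks. All 8 passed the test as higher (edgeR quasi-likelihood test, Benjamini-Hochberg adjusted p under 0.05), where 38.5% of all bins tested were higher and 36.6% lower. Of the flanks, 19 were higher and 23 lower, and of the 685 gene-rich bins (those with 5 or more protein-coding genes) 177 were higher and 317 lower, with a median of -0.03. Values per library are CPM with TMM scaling over all 24 libraries.

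A3, the bin of Zfp184 and 19 tRNA genes, was highest. It had 40.8 to 46.4 CPM in the 8 gH2AX libraries (median 43.2), against 30.6 to 33.0 CPM in the 8 H2AX libraries (median 32.0) and 36.2 to 39.0 CPM in the 8 input libraries (median 37.4). The gH2AX libraries lay above the input libraries and the H2AX libraries below them, with no overlap. The log2 ratio of gH2AX to H2AX in A3 was 0.44 (SE 0.0183, adjusted p = 2.56e-63, edgeR), which ranked 25 among the 25703 bins tested. B1, the densest histone bin, had 37.0 to 40.2 CPM in gH2AX (median 39.3), against 29.4 to 31.9 CPM in H2AX (median 30.4) and 38.1 to 40.5 CPM in input (median 39.9). There gH2AX overlapped input, and H2AX alone stood apart, below both. Its log2 ratio of gH2AX to H2AX was 0.35, rank 59. A2, with genes of H2A, H2B and H4, had 38.5 to 44.9 CPM in gH2AX (median 41.8), against 32.0 to 33.5 CPM in H2AX (median 32.8) and 33.9 to 35.5 CPM in input (median 34.7). In A2 gH2AX was above both of the others without overlap, and the log2 ratio to H2AX was again 0.35, rank 60.

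**Figure D1:**
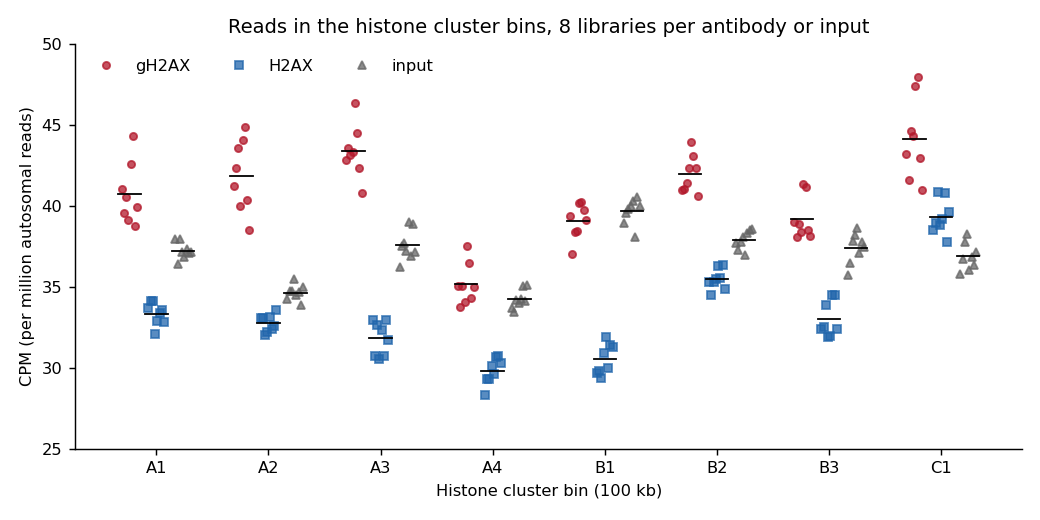
CPM (TMM scaled over all 24 libraries) in each cluster bin, with 1 point per library for gH2AX, H2AX and input (8 libraries each), a line at the mean and an axis that does not start at 0. In all 8 bins the gH2AX points lie above the H2AX points, and in B1 they overlap the input points (37.0 to 40.2 against 38.1 to 40.5 CPM).

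C1, the chromosome 3 cluster, was the only cluster bin with H2AX above input in the test. It had 41.0 to 48.0 CPM in gH2AX (median 43.8), against 37.8 to 40.9 CPM in H2AX (median 39.1) and 35.8 to 38.3 CPM in input (median 36.8). The gH2AX libraries were above both others without overlap, and H2AX and input overlapped. Its log2 ratio of gH2AX to H2AX, 0.17 (adjusted p = 3.97e-18, edgeR), was the lowest of the 8. The log2 ratios of the other bins were 0.29 in A1, 0.24 in A4, 0.24 in B2 and 0.25 in B3. Among all bins tested, the 8 stood between the 91.1 (C1) and 99.9 (A3) percentiles of this ratio.

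The ratio held library by library. With each gH2AX library set against the mean of the H2AX libraries of its own sex and genotype, the 8 log2 ratios ran from 0.34 to 0.56 in A3 (median 0.45), 0.32 to 0.40 in B1 (median 0.35) and 0.08 to 0.26 in C1 (median 0.16), and the other 5 bins lay between 0.17 and 0.45. No library fell below 0 in any of the 8 bins. In all 8 bins every gH2AX library also exceeded every H2AX library in CPM, which was so in 14.0% of all bins and in 12 of the 54 flanks. By group, the ratio over the 8 bins ran from 0.25 to 0.53 in male KO cells (median 0.35), 0.12 to 0.36 in male WT cells (median 0.23), 0.13 to 0.44 in female KO cells (median 0.25) and 0.16 to 0.45 in female WT cells (median 0.26).

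Against input, the 2 antibodies differed in the clusters. gH2AX was higher than input in 6 of 8 bins and lower in 0 (41.5% of all bins were higher and 45.2% lower, edgeR), with log2 ratios of 0.27 in A2, 0.26 in C1, 0.21 in A3, 0.15 in B2, 0.13 in A1 and 0.07 in B3. A4 (0.04, adjusted p = 0.0707) and B1 (-0.02, adjusted p = 0.286) did not pass the same edgeR test. The gH2AX libraries all exceeded the input libraries in 5 bins (A1, A2, A3, B2 and C1), as in 28.5% of all bins and in 27 of 54 flanks. Many flanks had as much gH2AX: the highest of the 54 were chr3:95200001-95300000 (0.36; Bnipl, Cdc42se1, Gm128, Mindy1 and Mllt11), chr13:24200001-24300000 (0.32; no protein-coding gene) and chr3:96800001-96900000 (0.31; Cd160, Gpr89 and Pdzk1). The lowest were chr13:21000001-21100000 (-0.13; the olfactory receptor gene Olfr1370) and the vomeronasal receptor bins chr13:22800001-22900000 (-0.13; Vmn1r209 to Vmn1r212) and chr13:23100001-23200000 (-0.12; Vmn1r217 to Vmn1r220). The share of higher cluster bins is above that of all bins but not above that of the gene-rich bins, given with the gene lists below. The flanks reach the same ratios.

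Total H2AX was lower than input in 7 of 8 cluster bins (44.5% of all bins were lower and 44.9% higher, edgeR). The log2 ratio was -0.37 in B1 (adjusted p = 1.46e-53), -0.24 in A3, -0.20 in A4, -0.18 in B3, -0.16 in A1, -0.10 in B2 and -0.08 in A2 (adjusted p = 2.01e-05), and C1 was higher (0.09, adjusted p = 5.01e-07), all in edgeR. In 7 bins every H2AX library was below every input library, as in 31.3% of all bins and in 3 of 54 flanks. B1 stood at the 3.77 percentile of all bins in this ratio. The gH2AX to H2AX ratios above share these H2AX libraries, so a low H2AX and a high gH2AX to H2AX ratio in a bin are not separate observations. B1 had input above most of the genome (the 91.3 percentile of autosomal bins, whose median was 37.0 CPM), while A4 and A2 had low input (10.9 and 14.1 percentiles). Core histone genes of a class, and tRNA genes, are often near-identical copies. How reads with several alignments and duplicates were handled is not given in the sources used here. Counts over such genes are therefore uncertain in all 3 kinds of library.

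The same contrasts were then set against the 10 nearest bins on each side, which leaves out what a whole region shares. For H2AX over input all 8 bins were lower than their neighbourhood, where 39.5% of all bins were lower (limma, Benjamini-Hochberg). B1 was lowest, at a log2 local contrast of -0.42 (adjusted p = 1.20e-57, limma), the 0.119 percentile of all bins. A3 followed at -0.25, B3 at -0.22, A4 at -0.21, A1 at -0.17, B2 at -0.14, A2 at -0.09 and C1 at -0.07. C1 thus had H2AX above input but less so than its own neighbourhood, and with 5 flanks per side it did not pass (-0.03, adjusted p = 0.115, limma).

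For gH2AX over input, 6 bins were higher than their neighbourhood (30.3% of all bins, limma) and 1 was lower (37.9%). A2 (0.31), A3 (0.25) and A1 (0.17) stood highest, followed by B2 and A4 (0.08 each) and C1 (0.07), of which A4 did not pass with 5 (0.04, adjusted p = 0.0827, limma) or 20 flanks per side (0.04, adjusted p = 0.0777). B1 was lower (-0.09, adjusted p = 1.01e-05, limma), and B3 was level with its neighbourhood within error (0.00, adjusted p = 0.972, limma). In stretch A, A1, A2 and A3 thus carried a local gH2AX excess over flanks that include vomeronasal and olfactory receptor genes. B1 had local values below those of its neighbourhood for both antibodies.

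**Figure D2:**
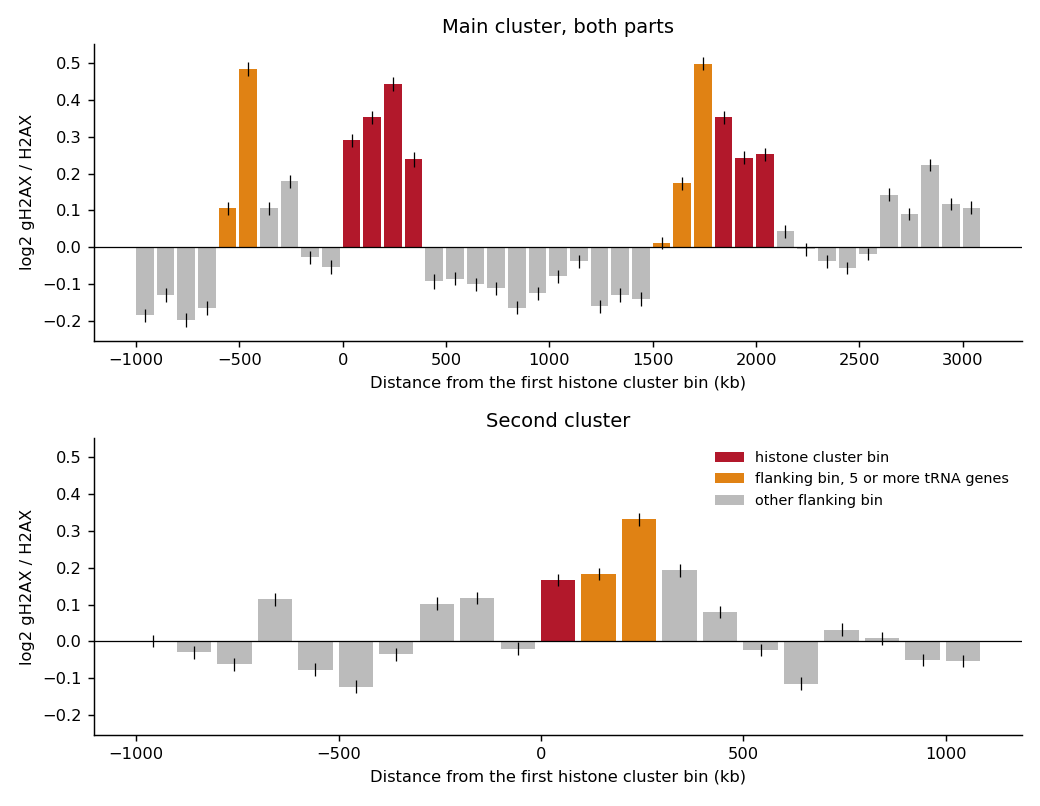
log2 ratio of gH2AX to H2AX (bars, with lines for ± SE) in each bin by its distance in kb from A1 (top panel, stretches A and B) or C1 (lower panel), with cluster bins in red, flanks with 5 or more tRNA genes in orange and other flanks in grey. The cluster bins (0.17 to 0.44) stand above most flanks, whose median is -0.03, and orange flanks reach 0.50 beside stretch B.

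Several flanks reached the range of the cluster bins, with and without many tRNA genes. With fewer than 5 tRNA genes, the bins chr13:24500001-24600000 (0.22; no protein-coding gene), chr3:96500001-96600000 (0.19; Ankrd34a, Hjv, Polr3gl and Txnip) and chr13:21400001-21500000 (0.18; Nkapl, Pgbd1, Zkscan4 and Zscan26) had log2 ratios of gH2AX to H2AX above the 0.17 of C1. The highest ratios were in flanks with many tRNA genes. The bin just before B1, which starts at chr13:23400001 (Abt1, Btn1a1 and Btn2a2), holds 22 tRNA genes, the most of any bin of the genome, and had a log2 ratio of gH2AX to H2AX of 0.50, with H2AX over input at -0.27. The bin chr13:21200001-21300000 (Gpx5, an epididymal glutathione peroxidase gene; 13 tRNA genes) had 0.48, with H2AX over input at -0.24. The bin chr3:96400001-96500000 (BC107364; 13 tRNA genes) had 0.33 and its neighbour chr3:96300001-96400000 (9 tRNA genes) 0.18. Bins were therefore split by their number of tRNA genes, after these values were seen, and are described without a test of the split.

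Outside the clusters, the median log2 ratio of gH2AX to H2AX was 0.0037 over 25558 bins with 0 tRNA genes and 0.03 over 117 bins with 1 to 4. It was 0.14 over 12 bins with 5 to 9 and 0.26 over 8 bins with 10 or more. The last class had 5 bins higher and 3 lower in edgeR. It includes the flanks at 0.50, 0.48 and 0.33 that prompted the split. Its other bins had 0.42 (chromosome 1), 0.19 (chromosome 11) and -0.20, -0.24 and -0.23 (chromosome 6). Of the 20 bins with 5 or more, 16 were higher and 3 lower in edgeR. The 7 such flanks had a median of 0.18, with 6 higher and 0 lower. The 13 such bins elsewhere had a median of 0.13, with 10 higher and 3 lower. Their H2AX differed: of the flanks 5 were lower than input and 0 higher, and of the bins elsewhere 4 were lower and 8 higher. The bin chr1:171000001-171100000, with 20 tRNA genes, had a gH2AX to H2AX ratio of 0.42.

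The ratio did not follow the number of tRNA genes in all bins. In chromosome 6, the 3 adjacent bins chr6:48100001-48200000, chr6:48200001-48300000 and chr6:48300001-48400000 hold 11, 18 and 19 tRNA genes and had lower gH2AX relative to H2AX (-0.20, -0.24 and -0.23), with H2AX above input (0.26, 0.23 and 0.23). B2, B3 and C1 have 0 tRNA genes and had 0.24, 0.25 and 0.17. The flank of H2bc1 and H2ac1, chr13:23900001-24000000, had a ratio of -0.01 (adjusted p = 0.792, edgeR). The part of tRNA genes, of read handling over repeated genes and of the histone genes in these ratios was not tested.

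**Figure D3:**
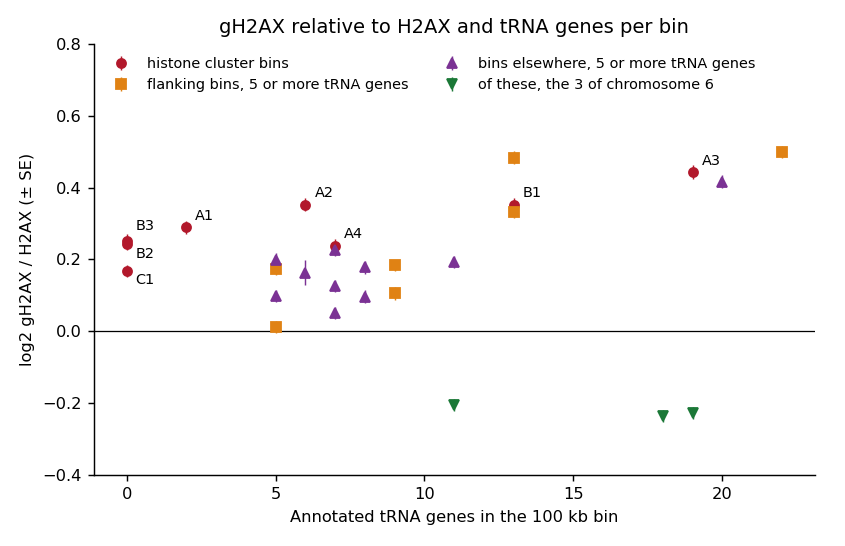
log2 ratio of gH2AX to H2AX (y axis) against the number of tRNA genes in the 100 kb bin (x axis), with ± SE, for the cluster bins and for flanks and bins elsewhere with 5 or more tRNA genes, the 3 bins of chromosome 6 marked apart. The 3 cluster bins with 0 tRNA genes lie at 0.17 to 0.25, and the chromosome 6 bins with 11 to 19 tRNA genes lie between -0.24 and -0.20.

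SIRT7 loss was compared with WT within each sex. In males, gH2AX over the clusters was higher in KO cells in 6 of 8 bins and lower in 0, where 22.4% of all bins tested were higher and 22.2% lower (edgeR quasi-likelihood test, Benjamini-Hochberg). The median log2 change of the 8 bins was 0.12, against -0.0073 over all bins. Of the 685 gene-rich bins, 62.2% were higher, with a median of 0.11. CPM in this comparison are scaled within the 8 libraries of an antibody.

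C1 had the largest log2 change of the 8 bins. It had 47.3 and 47.9 CPM of gH2AX in male KO cells, against 42.9 and 40.8 CPM in male WT cells. The KO libraries were both above the WT libraries, and the log2 change was 0.18 (SE 0.035, adjusted p = 4.87e-06, edgeR), a fold of 1.14. H2AX in C1 was 39.3 and 40.9 CPM in male KO cells, against 37.8 and 39.6 CPM in male WT cells, which overlap, and its input was 36.1 and 37.0 CPM in male KO cells, against 36.5 and 37.3 CPM in male WT cells.

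All 4 bins of stretch A passed as well. A2, with H4c17, H4c18 and genes of H2A and H2B, had 44.0 and 44.8 CPM in male KO cells, against 40.3 and 38.4 CPM in male WT cells. A1, with H1f5, had 42.5 and 44.2 CPM in male KO cells, against 38.7 and 39.8 CPM in male WT cells. A3, with Zfp184 and the tRNA genes, had 46.3 and 44.4 CPM in male KO cells, against 42.2 and 40.7 CPM in male WT cells. None of these 3 bins had overlapping genotypes. Their log2 changes were 0.17 in A2 (SE 0.035, adjusted p = 2.08e-05, edgeR), 0.15 in A1 (SE 0.036, adjusted p = 2.83e-04) and 0.12 in A3 (adjusted p = 0.00233). A4 had 37.4 and 36.4 CPM in male KO cells, against 34.2 and 34.9 CPM in male WT cells, a log2 change of 0.09 (adjusted p = 0.0323, edgeR) that did not pass in DESeq2 (adjusted p = 0.0573).

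In stretch B 1 of the 3 bins passed. B3, with H1f1, H1f2 and Hfe, had 41.3 and 41.1 CPM in male KO cells, against 38.4 and 38.0 CPM in male WT cells, a log2 change of 0.11 (adjusted p = 0.0103, edgeR). B2 had 43.9 and 43.0 CPM in male KO cells, against 42.2 and 40.4 CPM in male WT cells. B1 had 40.1 and 40.2 CPM in male KO cells, against 39.6 and 39.0 CPM in male WT cells. In both bins the KO libraries lay above the WT libraries, but the log2 changes of 0.07 in B2 (adjusted p = 0.111) and 0.03 in B1 (adjusted p = 0.528) did not pass in edgeR. Both male KO libraries exceeded both male WT libraries in all 8 bins, as in 35.6% of all bins.

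**Figure D4:**
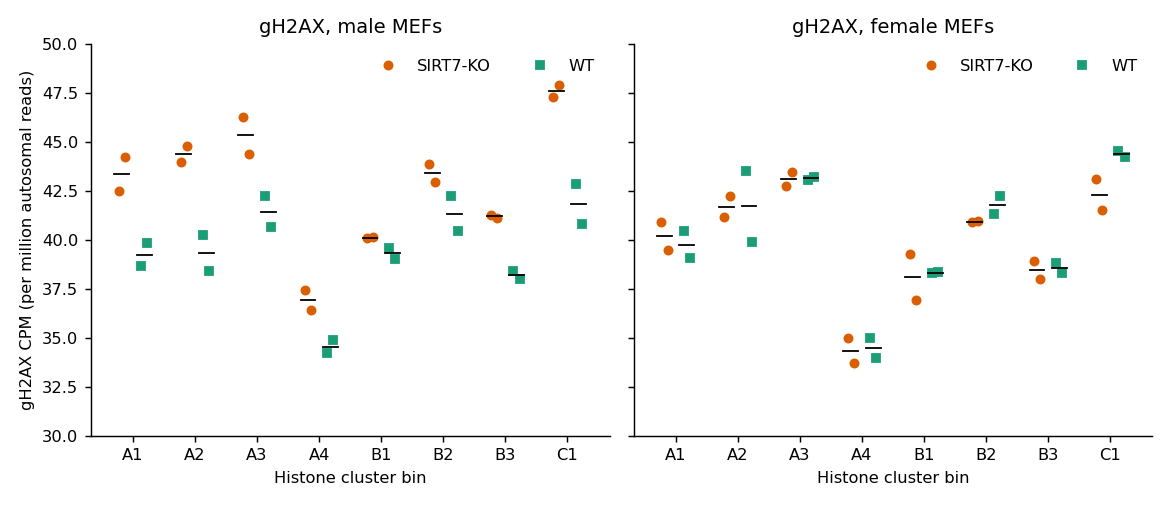
gH2AX CPM (scaled within the gH2AX libraries) in each cluster bin, males and females in separate panels, with KO left of WT, 1 point per library, a line at each mean and an axis that does not start at 0. In males the KO points lie above the WT points in all 8 bins (47.3 and 47.9 against 42.9 and 40.8 CPM in C1), and in females the genotypes overlap in 6 bins.

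The surroundings of the stretches differed in males. Of the 20 flanks of C1, 13 were higher in KO and 0 lower (median log2 change 0.11). Of the 20 flanks of stretch B, 7 were higher and 2 lower (median 0.01), and of the 20 flanks of stretch A 1 was higher and 8 lower (median -0.07). Against these flanks, the 4 bins of stretch A were higher in male KO cells and no other cluster bin passed (4 of 8 higher, where 7.98% of all bins were higher and 6.06% lower, limma with Benjamini-Hochberg adjustment). The local contrast of A1 was 0.28 and 0.32 in male KO cells, against 0.08 and 0.13 in male WT cells, and that of A2 was 0.33 and 0.34 in male KO cells, against 0.13 and 0.07 in male WT cells. The genotypes did not overlap in either. The local log2 changes were 0.23 in A2 (adjusted p = 8.04e-07, limma), 0.20 in A1 (adjusted p = 2.02e-05), 0.19 in A3 (adjusted p = 1.17e-04) and 0.15 in A4 (adjusted p = 0.00261). C1 (0.08, adjusted p = 0.119), B3 (0.07, adjusted p = 0.178), B2 (0.04, adjusted p = 0.542) and B1 (-0.00, adjusted p = 0.950) did not pass in limma. With 20 flanks per side, B3 (0.10, adjusted p = 0.0461) and C1 (0.10, adjusted p = 0.0292) passed too.

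The male calls depended on how the gH2AX level of a bin was treated. When the trend of each gH2AX library on the gH2AX to input ratio of the bins was taken out, 0 of 8 cluster bins were higher, with log2 changes between -0.00 (B2) and 0.09 (A1, adjusted p = 0.170, edgeR), and of all bins 0.852% were higher. With the same trend taken out, the local contrasts of stretch A were 0.12 in A1 (adjusted p = 0.122), 0.11 in A4 (adjusted p = 0.172), 0.10 in A2 (adjusted p = 0.222) and 0.07 in A3 (adjusted p = 0.428), and none passed in limma. With the input change of the same sex subtracted, 3 bins were higher, A1 (adjusted p = 0.0255), A2 (adjusted p = 0.0137) and C1 (adjusted p = 0.00286), of 10.8% of all bins (edgeR). The 6 calls became 3 without male KO replicate 1 and 3 without male WT replicate 2.

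**Figure D5:**
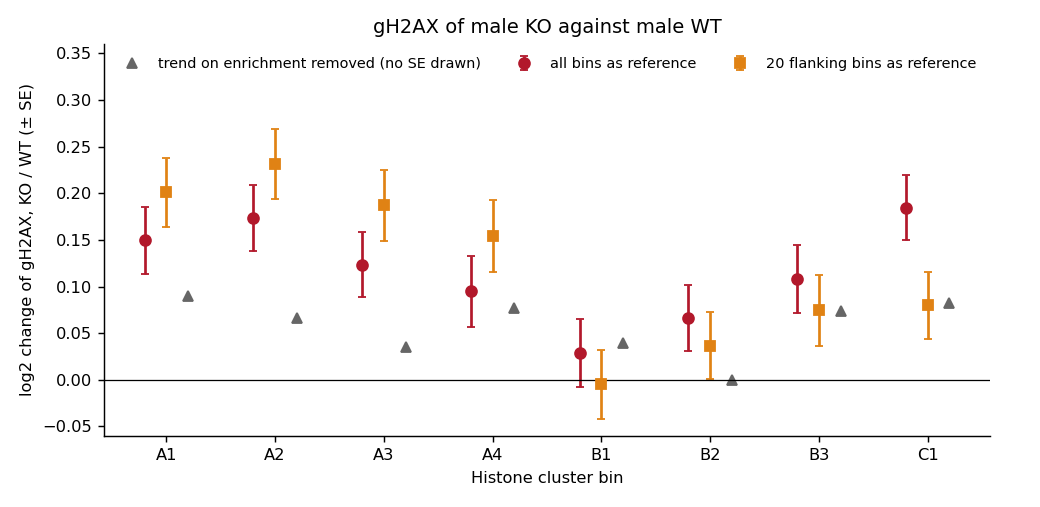
log2 change of gH2AX in male KO over male WT cells in each cluster bin, relative to all bins and relative to the flanking bins (both with ± SE), and relative to all bins after removal of the trend on the gH2AX to input ratio. A1 stands at 0.15, 0.20 and 0.09 on the 3 scales and B1 at 0.03, -0.00 and 0.04.

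Relative to H2AX, gH2AX was higher in male KO cells in 4 of 8 bins, where 15.9% of all bins were higher (edgeR). These were A2 (0.18, adjusted p = 0.00402), A3 (0.15, adjusted p = 0.0213), A1 (0.15, adjusted p = 0.0159) and C1 (0.14, adjusted p = 0.0179). Of the gene-rich bins 49.6% were higher in this measure. The 4 calls became 2 without gH2AX male KO replicate 2, gH2AX male WT replicate 2, H2AX male KO replicate 1 or H2AX male WT replicate 1.

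In females, no cluster bin differed between KO and WT in gH2AX. By edgeR 0 of 8 bins were called (0 at an unadjusted p under 0.05, and 0 by DESeq2), where 0.416% of all bins were higher and 0.595% lower. The log2 changes lay between -0.07 and 0.02. C1 had 43.1 and 41.5 CPM in female KO cells, against 44.6 and 44.2 CPM in female WT cells, with the KO libraries below the WT libraries (-0.07, adjusted p = 0.356, edgeR). Its input was 35.9 and 36.8 CPM in female KO cells, against 37.8 and 38.4 CPM in female WT cells (-0.07, adjusted p = 0.663, edgeR). With the input change subtracted, the gH2AX change of C1 was -0.0011 (adjusted p = 0.995, edgeR). A2 had 41.2 and 42.2 CPM in female KO cells, against 43.5 and 39.9 CPM in female WT cells, and A1 had 40.9 and 39.5 CPM in female KO cells, against 40.5 and 39.1 CPM in female WT cells. The genotypes overlapped in A1 and A2. B2 and C1 were the 2 bins in which both female KO libraries lay below both WT libraries, as in 21.3% of all bins. Of the 54 flanks 1 was higher in female KO cells (chr13:22900001-23000000, 0.14). Relative to H2AX 0 of 8 bins were called in females (0 at an unadjusted p under 0.05, 0.237% of all bins in either direction, edgeR), and relative to the flanks likewise 0 (0 at an unadjusted p under 0.05, 0.545% of all bins, limma).

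The difference between the sexes was tested directly. The KO effect on gH2AX was lower in females than in males in 4 of 8 bins, where 20.4% of all bins were lower (edgeR). The log2 difference, females minus males, was -0.25 in C1 (adjusted p = 1.74e-05), -0.17 in A2 (adjusted p = 0.00396), -0.13 in A1 (adjusted p = 0.0294) and -0.12 in A3 (adjusted p = 0.0368). DESeq2 called 2 bins, none of the 4 passed with the trend on the gH2AX to input ratio taken out, and of the gene-rich bins 63.4% were lower. The 4 calls became 2 when female KO replicate 2 was left out and 1 when female WT replicate 1 was. Averaged over the sexes, 2 bins were higher in KO, A2 (0.09, adjusted p = 0.0273) and A1 (0.08, adjusted p = 0.0396), where 2.62% of all bins were higher (edgeR), and DESeq2 called 0. Leaving out any 1 of the gH2AX libraries other than female WT replicate 1 ended at least 1 of these 2 calls: both without female KO replicate 1, female WT replicate 2, male KO replicates 1 or 2 or male WT replicate 2, and 1 without female KO replicate 2 or male WT replicate 1.

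Total H2AX and input did not pass in any cluster bin. For H2AX, edgeR called 0 of 8 in males (log2 changes of -0.02 to 0.04, smallest adjusted p = 0.840), 0 in females (-0.05 to 0.04, smallest adjusted p = 0.963) and 0 for the difference between the sexes (smallest adjusted p = 0.766), with 0 at an unadjusted p under 0.05 and 0 by DESeq2 in each. Over all bins, 0.191%, 0.152% and 0.272% were called in these 3 comparisons. For input, edgeR called 0 of 8 in males (-0.04 to 0.01, 0 at an unadjusted p under 0.05, 0.222% of all bins). It called 0 in females (-0.07 to -0.01, 2 at an unadjusted p under 0.05, 0.183% of all bins), and DESeq2 called 0 in both sexes. The 2 female bins were B3 (-0.07, adjusted p = 0.619, edgeR) and C1 (-0.07, adjusted p = 0.663, edgeR). In each of them both KO input libraries lay below both WT input libraries.

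Genes that act on histone supply were looked up by the bin that holds them. The list of the histone locus body and histone gene transcription had 11 of its 12 genes matched, each in a bin of its own. In male KO cells gH2AX was higher in 5 of the 11 bins and lower in 0 (median log2 change 0.07). The list of histone mRNA 3′ end processing had 10 of 14 bins higher and 0 lower (median 0.11), histone chaperones had 8 of 17 higher and 1 lower (median 0.08), and histone genes outside the clusters had 11 of 12 bins higher and 0 lower (median 0.12). Of all bins 22.4% were higher and 22.2% lower, and of the gene-rich bins 62.2% were higher and 12.8% lower, with a median of 0.11. The largest log2 changes were those of Sympk (0.22), the symplekin scaffold of histone pre-mRNA cleavage, Cdk2 (0.21), the kinase that phosphorylates NPAT, and E2f1 (0.20), an S phase transcription factor. Asf1b (0.18) and Anp32e (0.18), chaperones of H3-H4 and of H2A.Z, Macroh2a2 (0.17), a variant H2A, and Tent4b (0.17), a non-canonical poly(A) polymerase, followed. H3f3b, for the variant H3.3, Cpsf2, of the cleavage complex, and H1f0, a replacement linker histone, had 0.15 each. Atrx, a remodeller of the H3.3 pathway on the X chromosome, was the bin that was lower (-0.13, adjusted p = 0.0137, edgeR). In females Yy1, a transcription factor, was lower (-0.14, adjusted p = 0.0248, edgeR) and none of the other listed bins was called.

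The median log2 ratio of gH2AX to H2AX was near 0 in each list, with bins called in both directions. Of the locus body list 3 bins were higher and 5 lower (median 0.02), of the 3′ processing list 7 and 5 (median 0.00), of the chaperones 4 and 7 (median 0.00), and of the histone genes outside the clusters 4 and 4 (median 0.01). Of all bins 38.5% were higher and 36.6% lower in this ratio, and of the gene-rich bins 25.8% and 46.3%. Relative to input, gH2AX was higher in 9 of 11, 13 of 14, 16 of 17 and 12 of 12 bins in the same order, and lower in 1, the bin of Tut4 (-0.07), a terminal uridylyltransferase, where 41.5% of all bins and 79.4% of gene-rich bins were higher. The highest bins of the 4 lists were those of Yy1 (0.50), Sympk (0.72), Asf1b (0.58) and Macroh2a2 (0.49), and the lowest were those of Pou2f1 (-0.03), which encodes OCT1, Tut4, Atrx (-0.04) and H2az1 (0.10). H2AX was likewise higher than input in 9, 11, 15 and 12 bins, where 44.9% of all bins and 81.0% of gene-rich bins were higher, and in 1 of the 8 cluster bins. The bin of H2ax, the gene for H2AX itself, had gH2AX over input at 0.41 and gH2AX over H2AX at 0.00, and in male KO cells gH2AX was higher by 0.10 (adjusted p = 0.0109, edgeR).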

How the data were processed

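Chromatin immunoprecipitation and input libraries were analysed as the raw read counts per 100 kb bin that the authors deposited, 1 column per library. The submitters' processing notes name Bowtie2 2.2.9, an aligner, with build mm10. They also list MACS2 2.2.7.1, deepTools 2.4.2, SAMtools 0.1.19, FastQC 0.11.3 and Trimmomatic 0.36, with no role or order. The handling of duplicates and multiple alignments is not given in the sources used here. A further 24 columns, whose names match none of the labelled samples, were not used.

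Counts on chromosomes 1 to 19 and X (26350 bins) entered edgeR 4.0.16 in R 4.3.3 (quasi-likelihood F test, two-sided, filterByExpr, TMM factors on autosomal bins), with 1 mean per group. This left 25702 bins for gH2AX and 25703 for H2AX, input and the ratios between antibodies. KO against WT was fitted within each antibody, and ratios over all 24 libraries. The median biological coefficient of variation was 1.86% to 2.13%. Local contrasts, log2(CPM + 0.1) of a bin minus the mean over the 10 nearest bins per side that are not cluster bins, were tested with limma 3.58.1 in 25303 bins. P-values were adjusted by Benjamini-Hochberg over all bins of a fit, with a threshold of 0.05. The standard error of a log2 change is its size over the root of the F statistic. The models were tested on simulated data. DESeq2 1.42.0 (without independent filtering) was an alternative, beside other scalings and filters, a replicate block, 5 or 20 flanks per side, subtraction of the input change, removal of a lowess trend (span 0.3) on the gH2AX to input ratio, and leaving out each library. Removal of that trend from the local contrasts was added after the data were seen.

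In every group the replicates differed beyond counting error (chi-square per degree of freedom 2.58 to 3.90). Same-numbered libraries did not deviate together (r between -0.0416 and 0.0582), so the numbers were not taken as pairs.

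The cluster bins and lists were chosen with earlier results of these data known, and support nothing by their choice. All 8 cluster bins are named. Of the flanks the 3 highest and 3 lowest in gH2AX over input are named, others after their values were seen. Of the lists, genes are named when called for gH2AX in KO (at most 10 a comparison, largest first) or at the top or bottom of their list in gH2AX over input. Atrx, the lower bin, Tut4 and the H2ax bin were otherwise named after their values were seen.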

Additional observations from a re-analysis of the deposited data

Results flagged for a closer look

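In 4 of the 8 histone cluster bins the effect of SIRT7 loss on gH2AX differed between the sexes, by the interaction of genotype and sex in edgeR with Benjamini-Hochberg adjustment over all bins. The log2 difference, KO effect in females minus KO effect in males, was -0.25 in C1 (the chromosome 3 cluster with Fcgr1; adjusted p = 1.74e-05), -0.17 in A2 (H4c17 and H4c18; adjusted p = 0.00396), -0.13 in A1 (H1f5; adjusted p = 0.0294) and -0.12 in A3 (Zfp184 and 19 tRNA genes; adjusted p = 0.0368). In each of these bins both male KO libraries lay above both male WT libraries, and C1 alone also had both female KO libraries below both female WT libraries. Input in C1 was also below WT in both female KO libraries (log2 change -0.07, adjusted p = 0.663, edgeR). With the input change subtracted, the female gH2AX change of C1 was -0.0011 (adjusted p = 0.995, edgeR). DESeq2 called 2 of the 4, and leaving out 1 library at a time left 1 to 3. With the trend of each library on the gH2AX to input ratio taken out, 0 passed in edgeR, with -0.11 in C1 (adjusted p = 0.289), -0.03 in A2 (adjusted p = 0.895), -0.05 in A1 (adjusted p = 0.743) and -0.01 in A3 (adjusted p = 0.980). Of all bins tested 20.4% were lower in females, and of bins with 5 or more protein-coding genes 63.4%. Each sex has 2 libraries a genotype, so genotype and culture cannot be told apart within a sex.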

How the results depend on the processing

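The ratios between antibodies held: 8 bins were higher in gH2AX over H2AX, 6 in gH2AX over input, and 7 lower with 1 higher in H2AX over input, in every alternative run. A replicate block left the counts at 8 for gH2AX over H2AX, 6 for gH2AX in males, 4 for the difference between the sexes and 2 for the mean of the sexes. Of the local ratios to input, gH2AX lost A4 with 5 or 20 flanks per side (5 of 6 higher calls left) and H2AX lost C1 with 5 (7 of 8 lower calls left). The counts that moved by over 1.5 times were those of KO against WT. With the trend on the gH2AX to input ratio removed, 0 bins were called in males, in the difference between the sexes and in the mean of the sexes, and 0 in the local contrast of males (an alternative chosen after the data were seen). Subtracting the input change left 3 of the 6 male calls. DESeq2 left 2 of the 4 bins that differed between the sexes and 0 of the 2 of the mean of the sexes. Leaving out 1 library at a time gave 3 to 5 calls in males, 1 to 3 for the difference between the sexes, 0 to 2 for the mean of the sexes, 2 to 4 for gH2AX over H2AX in male KO cells and 3 to 4 for the local contrast of males. The causes were not tested beyond the construction of each alternative. No result changed its sign while called. With 2 libraries per group, and bins of 100 kb, changes within single histone genes were not detectable.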
